A study of Homo sapiens with 12 samples.

Results

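The guanylate-binding proteins GBP1 to GBP5 and 5 further genes of the interferon-γ type (IRF1, CXCL10, IDO1, WARS and LAP3) were followed in RNA sequencing of THP1 monocytes that had been exposed to endothelial cells (ECs) and then to lipopolysaccharide (LPS). These 10 genes are 10 of the 58735 rows of the deposited count table, each with a single row, and all 10 passed the filter of at least 10 counts in total. The genes were taken as a named list, with LAP3 chosen by its CPM, which is raised in every co-culture against mono-culture, so that this contrast is described here without a test. The 12 libraries form 4 groups of 3, and every group is wild-type THP1, a human monocytic leukaemia cell line, given LPS at 100 ng/ml for the last 2 h.

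THP1 cells in mono-culture were kept for 24 h in endothelial medium without ECs. In the other 3 groups the THP1 cells were kept for 24 h in inserts with 1 µm pores above human umbilical vein ECs. These ECs had been exposed to dimethyl sulfoxide (control ECs), to etoposide, a DNA-damaging drug that induces senescence (senECs), or to etoposide and then epigallocatechin gallate, a green tea polyphenol (EGCG-treated senECs). The methods give 10 µM etoposide and 100 µM EGCG for this senescence model. The THP1 cells were taken out of the inserts before LPS was added, no library lacked LPS, and the ECs themselves were not sequenced. The libraries are numbered 1, 2 and 3 in the mono-culture and control EC groups and 1, 2 and 5 in the senEC and EGCG-treated senEC groups. What a number marks is not stated, and p-values measure only the spread between these libraries, which may be technical.

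Each library held 15439836 to 22092600 counts. Levels are given as CPM, the counts scaled to TMM library sizes, or as FPKM, the same scaled to exon length. Of 12 monocytic marker genes, all 12 were detected, though CD68 had only 2 to 16 counts per library. CD14, the LPS co-receptor, was higher in the co-cultures (12.4 to 65.7 CPM, against 5.91 to 10.96 CPM in mono-culture, log2 fold change 1.59, edgeR adjusted p = 0.0492). That call was lost in 8 of the fits that left out 1 library. It was also lost in edgeR with DESeq2 size factors (adjusted p = 0.0526) or with only genes of at least 10 counts in every library (adjusted p = 0.0905). Of the 12, 4 were higher and 3 lower in the libraries numbered 3 or 5 than in those numbered 1, where 10.4% of all genes were called. Of 16 endothelial markers, 2 (MMRN1 and SOX17) had no count, CDH5 had 0 to 1 count and VWF 7 to 40 counts per library, while PECAM1, which monocytes also express, had 2281 to 3633. The summed level of the endothelial list was 158 to 184 CPM in mono-culture, 156 to 179 CPM above control ECs, 196 to 237 CPM above senECs and 188 to 243 CPM above EGCG-treated senECs. Most of this sum was PECAM1, at 129 to 161, 130 to 148, 168 to 210 and 162 to 217 CPM in the same order. The part of these transcripts and of the monocytic markers in the results below was not tested.

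Interferon-γ binds the receptor chains IFNGR1 and IFNGR2, the kinases JAK1 and JAK2 pass the signal on, and target promoters often hold GAS elements. IRF1 is an early target that in turn binds ISRE elements, and NF-κB, the main factor downstream of LPS, acts together with IRF1 at several of these promoters. Guanylate-binding proteins are large interferon-inducible GTPases that coat vacuoles and bacteria inside infected cells and promote inflammasome activation. In monocytes the same genes are also induced by type I interferon, which LPS can elicit. The libraries held no count of IFNG, the gene of interferon-γ, in any of the 12 libraries, which allows up to 0.132 to 0.191 CPM (3 counts, counting error only), and 0 to 5 counts of IFNB1, the gene of interferon-β.

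The GBP genes lie side by side on chromosome 1 (GRCh38, GENCODE 29), all 5 on the minus strand. GBP3 spans 89006666 to 89022894, GBP1 89052319 to 89065360, GBP2 89106132 to 89150456, GBP4 89181148 to 89198932 and GBP5 89258950 to 89272804. GBP7 shares 621 bases of exon with GBP2 on the same strand and had 2 counts in 1 library, and GBP6 had none in 12. These paralogs are alike in sequence, so reads could have been split or moved between them in the counting. IRF1 (chromosome 5, 132481609 to 132490798, minus strand) shares 1716 bases, 22.0% of its exon length, with C5orf56 on the other strand. Whether strand was used in the counting is not given in the sources used here.

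The promoters of GBP3 and GBP4, which are not adjacent, of IRF1, of CXCL10 and of LAP3 are shown. They are the 250 bases before the RefSeq start (GRCh38.p14), and RefSeq promoters were matched for 7 of the 10 genes, WARS under its newer symbol WARS1. The letters searched were GAAA in 2 copies with 2 bases between them for an ISRE, TTCNNNGAA for a GAS, and the κB motif by name, on both strands. Capitals mark a match.
GBP3 (minus strand of chr1:89022867-89023116): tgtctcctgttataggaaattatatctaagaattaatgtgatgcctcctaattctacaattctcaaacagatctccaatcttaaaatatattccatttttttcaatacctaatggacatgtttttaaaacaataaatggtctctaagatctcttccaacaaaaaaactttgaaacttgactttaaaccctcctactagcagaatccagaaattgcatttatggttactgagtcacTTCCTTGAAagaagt
GBP4 (minus strand of chr1:89198943-89199192): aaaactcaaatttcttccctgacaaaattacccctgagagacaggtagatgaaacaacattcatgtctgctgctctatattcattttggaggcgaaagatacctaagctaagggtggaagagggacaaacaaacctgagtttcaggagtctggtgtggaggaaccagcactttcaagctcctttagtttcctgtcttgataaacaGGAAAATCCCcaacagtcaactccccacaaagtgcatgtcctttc
IRF1 (minus strand of chr5:132490774-132491023): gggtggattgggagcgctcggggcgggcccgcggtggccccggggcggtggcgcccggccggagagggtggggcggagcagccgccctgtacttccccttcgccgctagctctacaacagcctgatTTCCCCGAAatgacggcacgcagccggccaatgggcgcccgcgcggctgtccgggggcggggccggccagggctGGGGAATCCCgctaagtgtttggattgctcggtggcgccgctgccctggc
CXCL10 (minus strand of chr4:76023498-76023747): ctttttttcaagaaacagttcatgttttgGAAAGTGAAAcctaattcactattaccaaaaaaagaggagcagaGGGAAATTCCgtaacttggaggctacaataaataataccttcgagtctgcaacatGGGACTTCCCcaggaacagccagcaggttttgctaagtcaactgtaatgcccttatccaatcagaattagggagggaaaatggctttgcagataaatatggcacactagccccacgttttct
LAP3 (plus strand of chr4:17576948-17577197): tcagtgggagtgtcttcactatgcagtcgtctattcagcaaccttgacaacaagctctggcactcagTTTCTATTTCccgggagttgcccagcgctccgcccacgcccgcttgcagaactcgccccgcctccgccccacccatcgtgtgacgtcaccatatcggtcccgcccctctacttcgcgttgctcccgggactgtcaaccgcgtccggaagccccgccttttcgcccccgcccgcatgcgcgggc

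CXCL10 carried an ISRE match at -221 and κB matches at -177 and -122 from the RefSeq start. IRF1 carried a GAS match at -124 and a κB match at -50, GBP3 a GAS match at -15, GBP4 a κB match at -45, and LAP3 an ISRE match at -183. GBP1, whose window is not printed, carried an ISRE match at -127 (TTTCAGTTTC), and the window of WARS held none of the motifs. Among 35116 promoters of the same length, 3.02% held the ISRE letters, 6.57% the GAS letters and 9.96% the κB motif. A match is a description of the letters and not of binding.

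GBP1 to GBP5 differed with the number of the library in all 4 groups and not detectably with the kind of EC. The libraries numbered 3 or 5 held more of each of the 5 transcripts than the library numbered 1 of the same group, whether the THP1 cells had been alone or above control ECs, senECs or EGCG-treated senECs. In the edgeR model with terms for group and number, the fold changes of number 3 or 5 over number 1 ran from 0.72 (GBP4) to 2.23 (GBP1) on the log2 scale. In the levels that follow, values are CPM in the order of numbers 1, 2 and 3 (or 5).

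GBP1, the founding member of the family, measured 0.808, 2.80 and 5.29 CPM in mono-culture, 1.06, 1.98 and 2.50 above control ECs, 0.826, 1.91 and 5.74 above senECs, and 0.975, 1.72 and 4.34 above EGCG-treated senECs. Its counts were low, at 13 to 96 per library. GBP2, which takes part in the release of bacterial DNA to inflammasomes, measured 7.34, 15.2 and 23.5 CPM in mono-culture, 6.62, 11.6 and 26.7 above control ECs, 7.85, 14.8 and 34.6 above senECs, and 7.19, 12.6 and 30.9 above EGCG-treated senECs. In both genes the library numbered 1 was the lowest and that numbered 3 or 5 the highest in every group.

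GBP5, which promotes assembly of the NLRP3 inflammasome, measured 10.1, 12.4 and 22.6 CPM in mono-culture, 10.7, 10.7 and 21.5 above control ECs, 11.4, 13.8 and 24.8 above senECs, and 10.2, 13.9 and 26.3 above EGCG-treated senECs. Here the libraries numbered 1 and 2 lay close together and those numbered 3 or 5 stood apart, 2.02 to 2.58 times the library numbered 1 of their group. GBP3 measured 14.8, 29.1 and 34.5 CPM in mono-culture, 12.5, 24.7 and 27.6 above control ECs, 14.6, 19.3 and 28.8 above senECs, and 11.1, 19.2 and 25.3 above EGCG-treated senECs. GBP4 measured 16.3, 26.8 and 27.0 CPM in mono-culture, 9.16, 17.0 and 16.6 above control ECs, 12.7, 16.3 and 18.9 above senECs, and 12.2, 19.3 and 20.5 above EGCG-treated senECs. GBP3 and GBP4 thus had their highest libraries in mono-culture, and in GBP4 the libraries numbered 2 were about as high as those numbered 3 or 5.

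**Figure D1:**
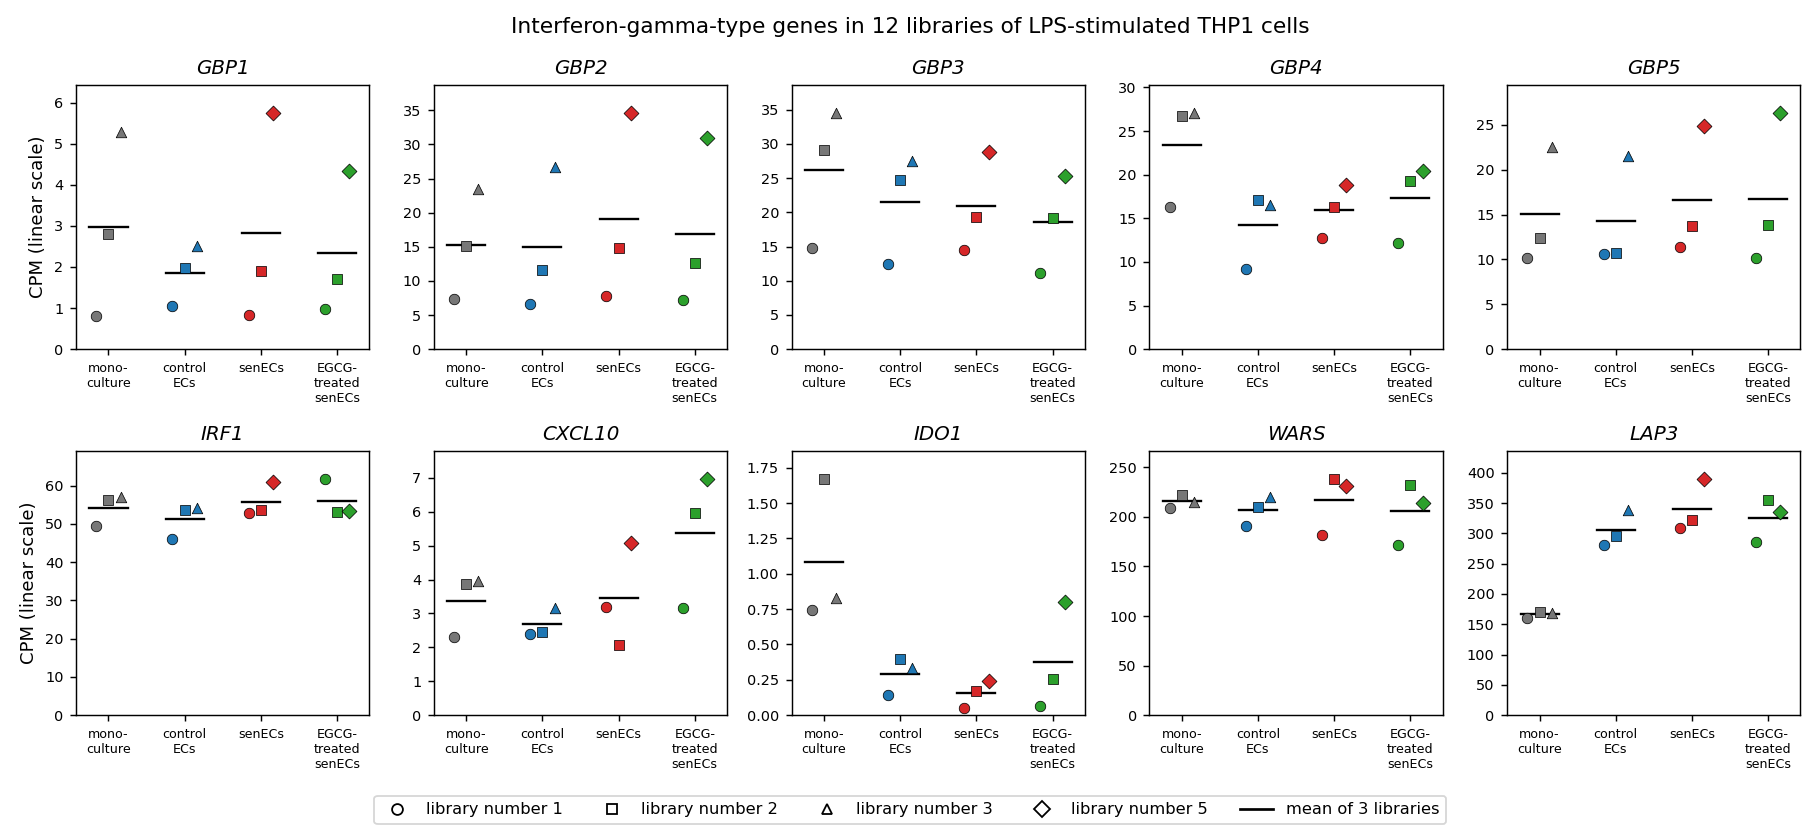
Level of each of the 10 genes in CPM (linear axis from 0) in the 12 libraries, by group, with the library number as the symbol and the mean of the 3 libraries of a group as a bar. GBP1 to GBP5 climb from circle (number 1) to triangle or diamond (3 or 5) inside each group, except that GBP4 with control ECs is 17.0 in number 2 and 16.6 in number 3, whereas LAP3 lies at 160.1 to 170.4 CPM in mono-culture and at 281 to 389.6 CPM in the co-cultures.

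Tested over all 25873 genes, 8 of the 10 genes were higher in the libraries numbered 3 or 5 than in those numbered 1, and none was lower, at an adjusted p under 0.05. The share called over all genes in this comparison was 10.4%, or 6.18% in the higher direction. For the 5 GBP genes the log2 fold changes were 2.23 for GBP1 (SE 0.28, adjusted p = 1.13e-09), 1.99 for GBP2 (SE 0.12, adjusted p = 9.36e-24), 1.16 for GBP5 (SE 0.12, adjusted p = 2.58e-13), 1.13 for GBP3 (SE 0.11, adjusted p = 4.29e-14) and 0.72 for GBP4 (SE 0.11, adjusted p = 7.61e-07). CXCL10 lay beside GBP4 at 0.74 (adjusted p = 0.0148), and LAP3 and WARS rose by the small amounts of 0.23 (adjusted p = 0.0274) and 0.23 (adjusted p = 0.0338). The calls of GBP1 to GBP5 held with each library left out. The CXCL10 call was lost without the library numbered 1 of mono-culture, 5 of senECs or 1 of EGCG-treated senECs, and 5 of the 10 genes were called without either of the last 2. DESeq2 also called 8 of the 10, and 9.8% of all genes.

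All 4 libraries numbered 3 or 5 lay above all 4 numbered 1 for GBP1 to GBP5 and WARS, 6 of the 10 genes, against 6.34% of all genes. For GBP4 the margin was narrow, since its lowest library numbered 3 or 5 held 16.6 CPM and its highest numbered 1 held 16.3 CPM. Within a group, the ratio of number 3 or 5 to number 1 ran from 2.37 to 6.95 for GBP1, 3.20 to 4.41 for GBP2, 1.98 to 2.33 for GBP3 and 1.49 to 1.81 for GBP4. Between numbers 2 and 1, 5 of the 10 genes were higher and none lower, against 4.5% of all genes called and 2.57% called higher. They were GBP1 (log2 fold change 1.17, SE 0.29, adjusted p = 0.00647), GBP2 (0.90, adjusted p = 1.2e-07), GBP3 (0.79, adjusted p = 9.23e-08), GBP4 (0.66, adjusted p = 2.04e-05) and WARS (0.26, adjusted p = 0.023). GBP5 stood at 0.25 (adjusted p = 0.305), and DESeq2 called 4 of the 10 (4.6% of all genes), without GBP1. The GBP1 call was also lost without the library numbered 1 or 2 of mono-culture.

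The rise with number was measured in pairs of groups as well, in fits chosen after seeing the data. These fits split the libraries of the model above and are not independent of it. With only the libraries of mono-culture and control ECs, all 5 GBP genes, and no other of the 10, were called higher in number 3 than in number 1, against 4.21% of all genes called in either direction. With only those of senECs and EGCG-treated senECs, 6 of the 10 were called higher in number 5 than in number 1, against 5.72% of all genes. For number 2 against 1 in the latter libraries, GBP2 alone was called (1.19% of all genes). Genes of the LPS response moved with the same numbers: the summed level of 23 early NF-κB targets was 3743 to 4682 CPM in the libraries numbered 1, 5633 to 5800 CPM in those numbered 2 and 8033 to 10480 CPM in those numbered 3 or 5, with no overlap. The summed level of 26 type I interferon genes was 175 to 202 CPM, 186 to 242 CPM and 201 to 428 CPM in the same order. The part of either in the levels of the GBP genes was not tested.

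Between the 3 co-cultures no GBP gene was called. GBP1 was 0.61 higher on the log2 scale with senECs than with control ECs (SE 0.63, adjusted p = 0.85) and GBP2 0.35 higher (SE 0.53), the spread between the 3 numbers of a group being wider than these differences. Of the 10 genes, 0 passed in senECs against control ECs and 0 in EGCG-treated senECs against senECs by edgeR or by DESeq2, and 0 had an unadjusted p under 0.05 in either. In EGCG-treated senECs against control ECs 0 passed by either tool and 1, CXCL10, had an unadjusted p under 0.05. Without a term for library number, the share called over all genes was 0% in each of the 3 comparisons by either tool. There edgeR gave 1709, 575 and 1177 of 25873 genes at an unadjusted p under 0.05. In EGCG-treated senECs against senECs, the GBP genes lay between -0.24 (GBP1) and 0.12 (GBP4).

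**Figure D2:**
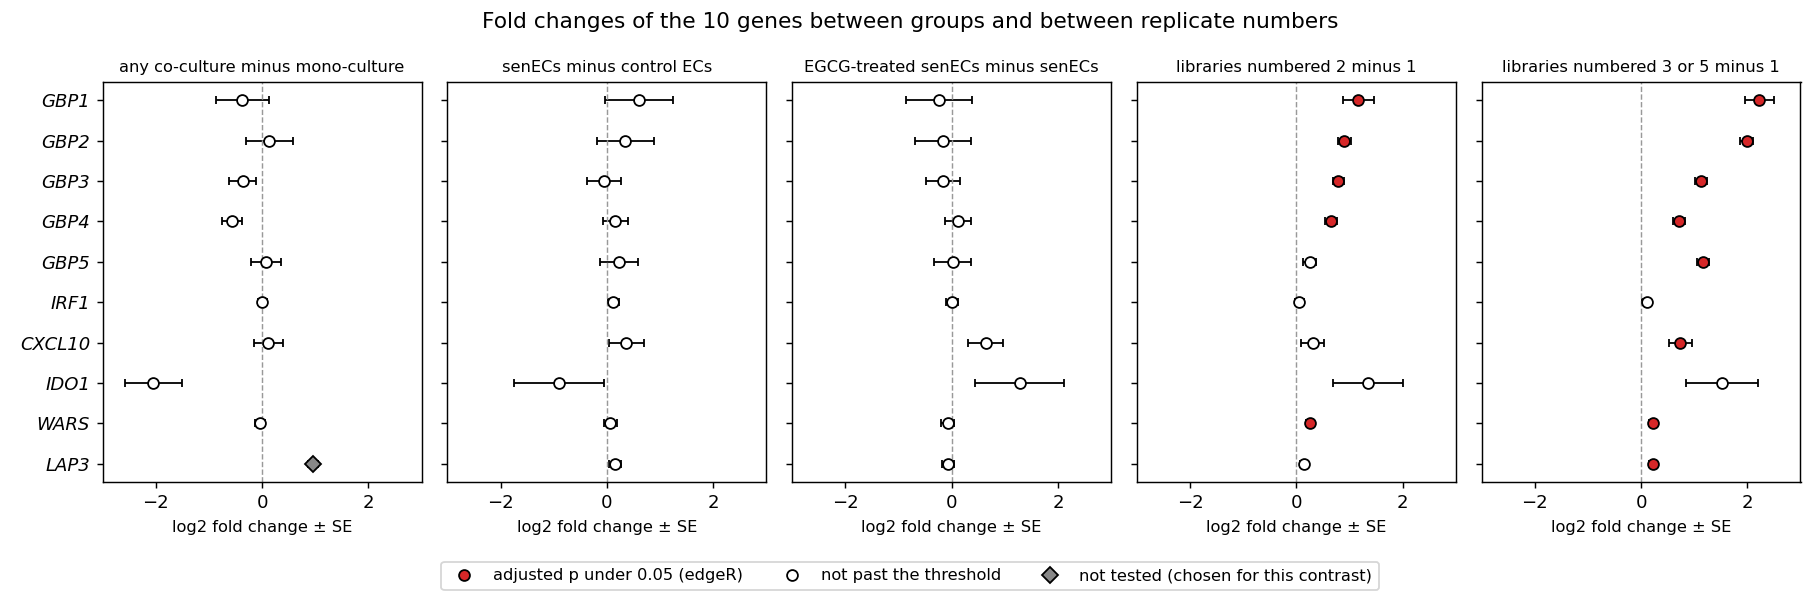
Log2 fold change of each gene with its standard error in 5 comparisons, with filled circles for an adjusted p under 0.05 (edgeR) and a grey diamond for LAP3 against mono-culture, which was not tested. Filled circles appear only in the panels of library number, where GBP1 reaches 2.23 and GBP2 1.99 for number 3 or 5 against 1. The group panels come from a model without a term for number, and the number panels from one with group and number. With the number term added (3 and 5 joined), GBP3, GBP4 and IDO1 passed in any co-culture against mono-culture (edgeR adjusted p = 0.0182, 4.84e-05 and 0.00508).

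Against mono-culture, the mean of the 3 co-cultures was lower for GBP4 by 0.57 on the log2 scale, with a group mean of 23.4 ± 6.13 CPM (SD, n = 3) in mono-culture and 14.3 ± 4.42 above control ECs, 15.9 ± 3.10 above senECs and 17.3 ± 4.47 above EGCG-treated senECs. The groups overlapped, and GBP4 did not pass in the edgeR model, which held no term for library number (SE 0.19, unadjusted p = 0.00713, adjusted p = 0.245). It passed when every gene with a count was kept in the model (adjusted p = 0.000948). It also passed in edgeR with a term for library number as labelled (adjusted p = 0.000116). GBP3 lay 0.37 lower (SE 0.26, adjusted p = 0.646), GBP1 0.37 lower (SE 0.50), GBP2 0.13 higher (SE 0.44) and GBP5 0.07 higher (SE 0.29). Of the 9 genes tested against mono-culture, 0 were called by edgeR or DESeq2 without a term for number in the 3 co-cultures together or in any one of them. The share called over all genes by edgeR was 0.723% for the co-cultures together, 0.143% for control ECs, 0.309% for senECs and 0.213% for EGCG-treated senECs, and by DESeq2 it was 1.69%, 0.464%, 1.34% and 0.889%. An unadjusted p under 0.05 was found for GBP4 and IDO1 in each of these except EGCG-treated senECs, where only IDO1 had one. With a term for library number as labelled, edgeR called 3 of the 9 lower in the co-cultures together. They were GBP3, GBP4 and IDO1, against 3.18% of all genes called.

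Set beside the mono-culture library of the same number, with 5 beside 3, GBP4 was lower in 9 of 9 co-culture libraries, by 0.32 to 0.71 on the log2(CPM + 2) scale. GBP3 was also lower in 9 of 9, by 0.02 to 0.55, and so was IDO1, whereas 4.85% of all genes were lower in 9 of 9. GBP1 and GBP2 were higher in 4 of 9 and GBP5 in 7 of 9. The neighbours GBP4 and GBP5 therefore took opposite sides of mono-culture in most libraries, and a difference between them was not tested.

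**Figure D3:**
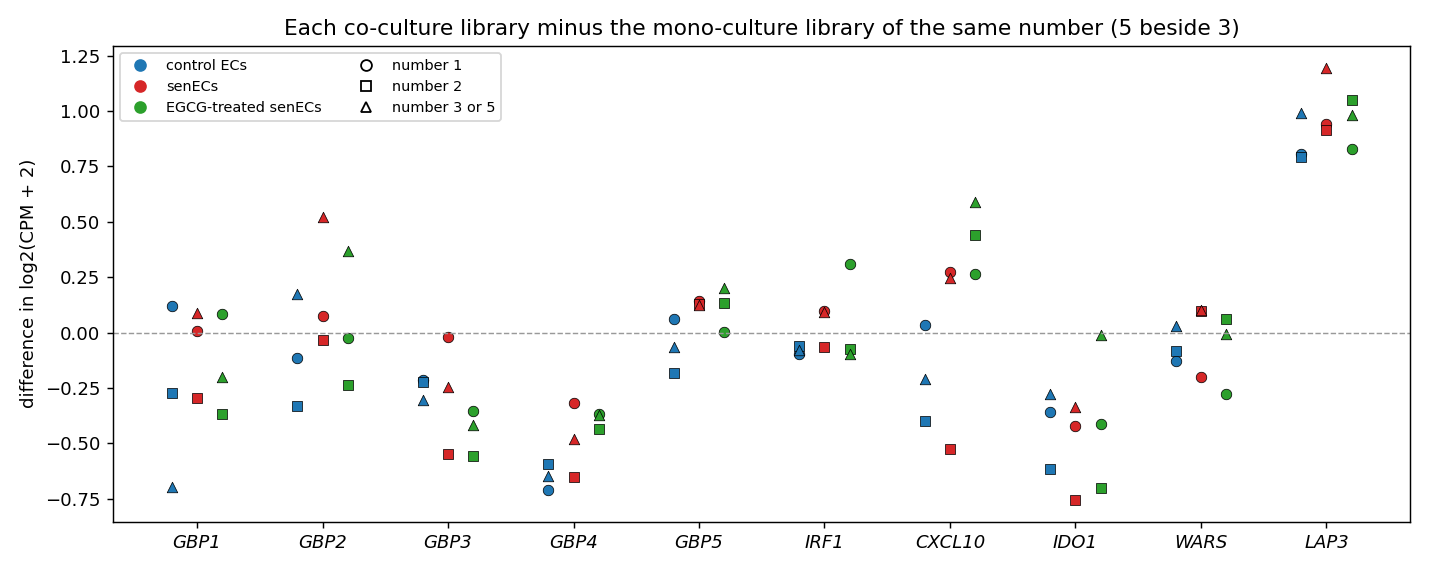
Difference in log2(CPM + 2) between each of the 9 co-culture libraries and the mono-culture library of the same number (5 is set beside 3), by gene, with colour for the kind of EC and symbol for the number. All 9 points of GBP3, GBP4 and IDO1 lie below 0 and all 9 of LAP3 lie between 0.79 and 1.20.

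**Figure D4:**
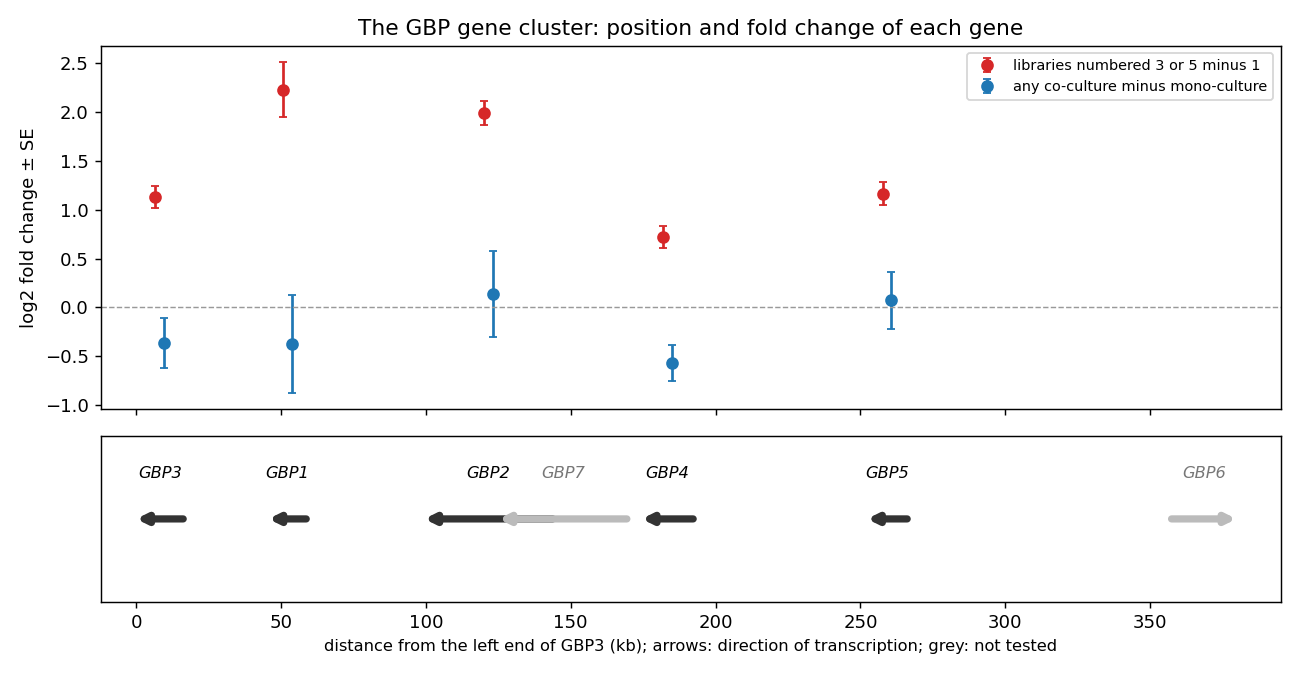
The GBP genes of chromosome 1 drawn to scale as arrows in the direction of transcription, against the distance from the left end of GBP3 in kb, with the log2 fold change and standard error of each gene above. The fold changes for number 3 or 5 against 1 (red) run from 0.72 to 2.23, and those for any co-culture against mono-culture (blue) from -0.57 to 0.13.

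IRF1, the transcription factor that binds ISRE elements, had a nearly constant level. It measured 49.4, 56.1 and 57.2 CPM in mono-culture, 46.1, 53.8 and 54.1 above control ECs, 53.0, 53.6 and 61.0 above senECs, and 61.7, 53.2 and 53.3 above EGCG-treated senECs. The highest library was 1.34 times the lowest, and the groups overlapped throughout. The log2 fold change was 0.00 for any co-culture against mono-culture (SE 0.09) and 0.11 for number 3 or 5 against 1 (SE 0.09, adjusted p = 0.567). Among 7 other members of the IRF family, 1 was lower in number 3 or 5 than in 1 (IRF5, log2 fold change -0.35) and none was higher. Over all genes 10.4% were called.

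CXCL10, a chemokine that draws in activated T cells through CXCR3, was at its highest with EGCG-treated senECs. It measured 2.30, 3.88 and 3.97 CPM in mono-culture, 2.40, 2.46 and 3.17 above control ECs, 3.20, 2.08 and 5.08 above senECs, and 3.17, 5.97 and 6.96 above EGCG-treated senECs. The group means were 3.38 ± 0.937, 2.68 ± 0.427, 3.45 ± 1.51 and 5.37 ± 1.97 CPM (SD, n = 3), and the groups overlapped. The log2 fold change of EGCG-treated senECs was 1.01 against control ECs (SE 0.33, unadjusted p = 0.00608, adjusted p = 0.979) and 0.64 against senECs (SE 0.32, unadjusted p = 0.0626, adjusted p = 1). CXCL9, the related chemokine, had no count in any of the 12 libraries.

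IDO1, the enzyme that opens the kynurenine pathway of tryptophan breakdown, was scarce. It had 12, 31 and 15 counts in mono-culture, 3, 9 and 6 above control ECs, 1, 3 and 4 above senECs, and 1, 4 and 15 above EGCG-treated senECs, or 1.08 ± 0.511, 0.291 ± 0.131, 0.156 ± 0.0963 and 0.373 ± 0.385 CPM (SD, n = 3). All libraries with control ECs or senECs lay below all 3 of mono-culture, and the library numbered 5 above EGCG-treated senECs, at 0.804 CPM, lay inside the range of mono-culture. The log2 fold change of any co-culture against mono-culture was -2.05 (SE 0.54, unadjusted p = 0.00127, adjusted p = 0.109). Without that library it was -2.46 and passed, and it also passed with every gene with a count in the model (adjusted p = 0.0106). With a term for library number as labelled, IDO1 passed in edgeR (log2 fold change -2.69, adjusted p = 0.00115). It was not called by DESeq2 with a term for number, 3 and 5 joined.

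Of 9 further kynurenine pathway genes, QPRT, which makes the NAD precursor at the end of the pathway, was lower in the co-cultures than in mono-culture (log2 fold change -0.74, SE 0.11, adjusted p = 0.00223), and none was higher, beside the 0.723% of all genes called. QPRT measured 123, 143 and 109 CPM in mono-culture and 54.6 to 94.2 CPM in the 9 co-culture libraries, with no overlap (1.64% of all genes had all 9 below all 3), and its call was lost without the mono-culture library numbered 2 (log2 fold change -0.63). QPRT also lay lower in number 3 or 5 than in number 1 of each group. It was 109 against 123 CPM in mono-culture, 60.9 against 79.1 above control ECs, 81.6 against 94.2 above senECs and 54.6 against 85.2 above EGCG-treated senECs. KYNU, which cleaves kynurenine, was higher in the libraries numbered 3 or 5 than in 1 (log2 fold change 1.39, SE 0.09, adjusted p = 1.92e-22). In that comparison 1 of the 9 was called higher and 1 lower, beside 10.4% of all genes called.

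WARS, the cytosolic tryptophanyl-tRNA synthetase and an interferon-γ target, was among the 2 most abundant of the 10 genes and differed little. It measured 209, 222 and 215 CPM in mono-culture, 191, 209.6 and 220.1 above control ECs, 182, 238 and 231 above senECs, and 172, 232 and 214 above EGCG-treated senECs. The co-culture libraries fell on both sides of mono-culture, and the log2 fold change was -0.04. The library numbered 1 was the lowest in each group. Its calls against number 1 rested on small differences and were lost without any of 6 libraries for number 3 or 5 and any of 4 for number 2, all of them from the co-cultures. Of 19 other tRNA synthetases, 1 was higher in number 3 or 5 than in 1 (TARS, log2 fold change 0.22) and none was lower. Over all genes 10.4% were called in that comparison. None of the 19 was called against mono-culture, beside 0.723% of all genes for the co-cultures together.

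LAP3, a leucine aminopeptidase of the cytosol that trims peptides and is induced by interferon-γ, was chosen for its level in co-culture. It measured 160.1, 170.4 and 169 CPM in mono-culture, 281, 296 and 338 above control ECs, 309, 322 and 389.6 above senECs, and 286, 355 and 336 above EGCG-treated senECs. All 9 co-culture libraries lay above all 3 of mono-culture, as they did for 1.77% of all genes, and each lay above the mono-culture library of its number, as for 4.76%. The log2 fold changes against mono-culture were 0.87 above control ECs, 1.03 above senECs and 0.97 above EGCG-treated senECs, given here with no test since they chose the gene. Between the co-cultures, which the choice did not use, the log2 fold change was 0.16 for senECs against control ECs (SE 0.11, adjusted p = 0.772) and -0.07 for EGCG-treated senECs against senECs (adjusted p = 1). Its rise of 0.23 in number 3 or 5 against 1 was lost without any of 5 co-culture libraries, namely those numbered 1 or 3 above control ECs, 1 or 5 above senECs and 1 above EGCG-treated senECs. Of 9 other aminopeptidases, none was called against mono-culture, beside 0.723% of all genes for the co-cultures together. In number 3 or 5 against 1, 1 rose (LTA4H, 0.47) and 1 fell (LNPEP, -0.24), beside the 10.4% of all genes called.

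Per length, the 10 genes spanned a wide range of levels. The mean over the 12 libraries was 75.1 FPKM for LAP3, 33.3 for WARS, 6.97 for IRF1, 5.07 for GBP3, 3.16 for CXCL10, 2.89 for GBP4, 2.64 for GBP2, 1.93 for GBP5, 0.5 for GBP1 and 0.146 for IDO1. LAP3 lay above WARS in each library, at 42.3 FPKM or more against 37.4 or less. IRF1 and GBP3 overlapped, at 5.91 to 7.91 and 2.59 to 8.03 FPKM, and the ranges of CXCL10, GBP4, GBP2 and GBP5 overlapped one another, so that the order among these 4 is not resolved by their spread. GBP1 (0.162 to 1.15 FPKM) overlapped IDO1 (0.0158 to 0.512 FPKM).

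The receptor and signalling genes of interferon-γ moved with the library number too. Of 9 tested, 6 were higher in number 3 or 5 than in 1 and none was lower, beside the 10.4% of all genes called, with a median log2 fold change of 0.35 against -0.03 over all genes. They included SOCS3, a feedback inhibitor (1.17), the receptor chains IFNGR2 (0.85) and IFNGR1 (0.35), the phosphatase PTPN2 (0.41) and the kinase JAK1 (0.25). JAK2 was at -0.07 (adjusted p = 0.76) and SOCS1 at -0.19 (adjusted p = 0.897). None of the 9 was called in any co-culture against mono-culture. There 0.723% of all genes were called for the co-cultures together and 0.143% to 0.309% for single groups.

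Of 43 other interferon-γ targets tested, 21 were higher in number 3 or 5 than in 1 and 1, IRF8, was lower (log2 fold change -0.21), with a median of 0.39. Over all genes 10.4% were called, and 6.18% in the higher direction. The 5 rises with the smallest p were in SERPING1, an inhibitor of complement (1.44, SE 0.19), GCH1, which starts the synthesis of tetrahydrobiopterin (1.25, SE 0.08), CD40, a costimulatory receptor (1.23, SE 0.08), LGALS3BP, a secreted glycoprotein (0.94, SE 0.14), and UBE2L6, an ISG15-conjugating enzyme (0.84, SE 0.10). The immunoproteasome subunits PSMB8 (0.38), PSMB9 (0.39) and PSMB10 (0.28) rose by less, and the peptide transporter genes TAP1 (0.13, adjusted p = 0.353) and TAP2 (0.10, adjusted p = 0.516) did not pass. Against mono-culture, 2 of the 43 were higher in the co-cultures, beside the 0.723% of all genes called. The median over the list was 0.00. PARP9, an ADP-ribosyltransferase, measured 8.61 to 14.3 CPM in mono-culture and 23.1 to 35.03 CPM in the co-cultures (log2 fold change 1.35, SE 0.16, adjusted p = 0.000282). FCGR1A, the high-affinity IgG receptor CD64, measured 26.1 to 30.2 CPM in mono-culture and 35.6 to 51.6 CPM in the co-cultures (0.55, SE 0.12, adjusted p = 0.0348), a call that was lost without any of 6 libraries. In both genes all 9 co-culture libraries lay above all 3 of mono-culture, as they did for 1.77% of all genes.

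Of 24 type I interferon genes tested, 12 were higher in number 3 or 5 than in 1 and none was lower, beside the 10.4% of all genes called. Among the 12 were MX1 (log2 fold change 0.92), OAS3 (0.82) and IFI6 (0.71), all antiviral effectors. The library numbered 5 with EGCG-treated senECs was the highest for MX1 (28.1 CPM, against 2.96 to 10.2 CPM in the other 11) and OAS3 (113 CPM, against 29.7 to 59.6 CPM), and without it the rises were 0.55 for MX1 (adjusted p = 0.0303) and 0.56 for OAS3 (adjusted p = 7.39e-06), and 7 of the 12 calls held. The same library had the highest CXCL10, GBP5 and GBP1P1, while GBP1 and GBP2 were highest in the senEC library numbered 5. None of the 24 was called against mono-culture, beside 0.723% of all genes for the co-cultures together. In the co-cultures together 20 of them lay above mono-culture and 4 below, with a median log2 fold change of 0.45, against -0.02 over all genes. Of the 23 early NF-κB targets, 23 were higher in number 3 or 5 than in 1, with a median of 1.06. None was called against mono-culture, beside the same 0.723% of all genes. In the co-cultures together 20 of the 23 lay above mono-culture and 3 below (median 0.22).

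By the mean absolute difference of z-scored log2(CPM + 2) over the 12 libraries, the genes most like the mean of GBP1 to GBP5 among 14392 were CXCL8, a neutrophil chemokine (0.145), B4GALT1, a galactosyltransferase (0.156), PLEK, a platelet and leukocyte signalling protein (0.164), IL23A, a cytokine subunit (0.168), and BTG2, an antiproliferative early gene (0.182). GBP1 to GBP5 themselves were left out of this search, so none of them could appear. Within the 10 genes the closest pair was GBP2 and GBP5 (0.244), then GBP1 and GBP2 (0.285), and the farthest was GBP4 and LAP3 (1.27). The genes most like LAP3 among 14396 were CTPS1, which makes CTP (0.174), YBX3, an RNA-binding protein (0.203), GYG1, which primes glycogen (0.204), STAT3, a transcription factor downstream of IL-6 (0.213), and DUSP3, a phosphatase (0.213). These likenesses describe the 12 libraries, which share groups and numbers.

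**Figure D5:**
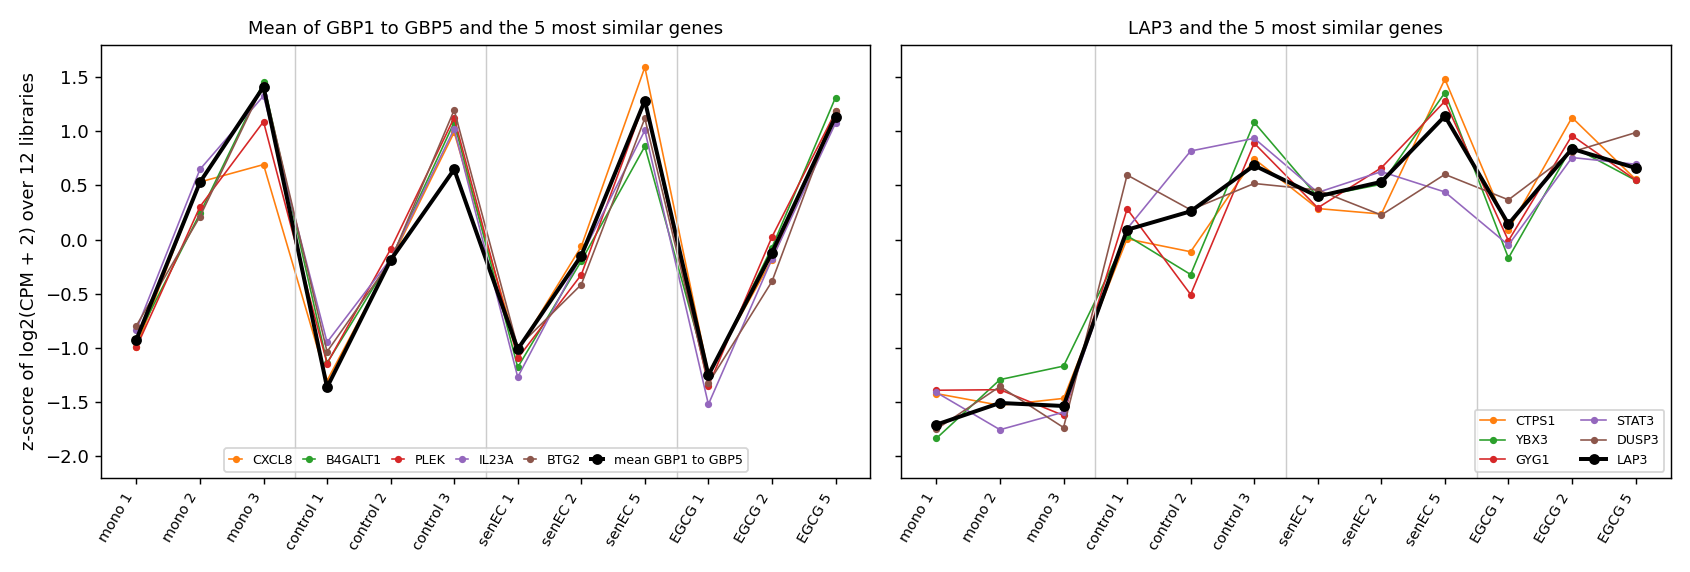
z-scores of log2(CPM + 2) over the 12 libraries (horizontal axis, by group and number) for the mean of GBP1 to GBP5 and for LAP3 (black) with the 5 most similar genes of each, where lines only join the points of a gene. The GBP mean and its neighbours rise with the number inside each group, and LAP3 and its neighbours separate the 3 mono-culture libraries from the 9 co-culture libraries.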

How the data were processed

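RNA of LPS-stimulated THP1 cells in 4 groups of 3 libraries was sequenced as paired ends, and reads were aligned to hg38 with HISAT2, per the submitters' processing notes. The deposited values are whole-number read counts of each gene, which the authors left without normalization. The program that made the counts is not given in the sources used here. Libraries were mapped to groups by their labels, and 4 columns that match no described sample were not used. The 25873 of 58735 rows whose counts summed to 10 or more were tested with the quasi-likelihood test of edgeR 4.0.16 in R 4.3.3 (TMM, Benjamini-Hochberg adjustment, threshold 0.05) with all 12 libraries in 1 model. Group comparisons used the group alone. Number comparisons used group and number, with 3 and 5 joined. Standard errors were derived from the log2 fold change and its F statistic. FPKM used GENCODE 29 exon lengths, and log2 CPM adds a pseudocount of 2. With 3 libraries against 3, an exact permutation test of a single value cannot go below p = 0.1. Alternatives were DESeq2 1.42.0, its size factors, other filters, subsets of libraries, a replicate block and each library left out. Tested on simulated data with 200 genes changed 2-fold, edgeR recovered 147 for senECs against control ECs (25002 genes) and 167 for any co-culture against mono-culture (25040 genes). It made 12 and 21 false calls in the same order, and changes under 2-fold were not simulated.

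The 10 genes and the lists were chosen with earlier results of these data known. The text names these 10, called genes and abundant genes of each list, and the 5 genes most like GBP1 to GBP5 and like LAP3, except 1 called gene that is not reported here. No 2 libraries of a group were alike within sampling noise (chi-square per degree of freedom of at least 9.23).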

Additional observations from a re-analysis of the deposited data

How the results depend on the processing

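Beyond the values below, no alternative reversed or ended a call on the GBP genes for number 3 or 5 against 1. With every gene with a count in the model, 1 of 9 genes was called with control ECs (GBP4), 2 with senECs and 2 in any co-culture against mono-culture (GBP4 and IDO1), where 0.641%, 1.69% and 1.67% of all genes were. Number 2 against 1 gave 1 call with only the libraries of senECs and EGCG-treated senECs, and number 3 or 5 against 1 gave 5 with only those of mono-culture and control ECs, both fits chosen after seeing the data. The cause of these changes was not tested beyond the smaller number of libraries. Leaving out each library in turn gave 0 to 1 calls in any co-culture against mono-culture, 4 to 5 for number 2 and 5 to 8 for number 3 or 5.

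Same-numbered libraries deviated together in 10 of 14 pairs (r above 0.1, range 0.03 to 0.58), 3 with 5 in 4 of 4 (0.37 to 0.53) and differently numbered ones in 4 of 36 (-0.56 to 0.22), over 14397 genes, and since not every same-numbered pair was above 0.1, the group comparisons were made without the block. With the replicate block as labelled, calls against mono-culture were 1 with control ECs (GBP4), 2 with senECs (GBP4, IDO1), 1 with EGCG-treated senECs (GBP3) and 3 in any co-culture (GBP3, GBP4, IDO1), where 1.81%, 2.74%, 1.64% and 3.18% of all genes were. With numbers 3 and 5 joined in the block they were 1, 2, 2 and 3 (1.55%, 5.44%, 3.02% and 4.8% of all genes), and with DESeq2 and the joined block, chosen after seeing the data, 1, 1, 2 and 2 (1.56%, 5.28%, 3.02% and 4.86%), without IDO1. In any co-culture, the adjusted p under the block as labelled and joined was 0.000116 and 4.84e-05 for GBP4, 0.0274 and 0.0182 for GBP3, and 0.00115 and 0.00508 for IDO1 (edgeR). The block gave no call among the 10 genes between co-cultures, where few of all genes were called (edgeR, block as labelled and joined). The shares were 0.591% and 1.04% for senECs against control ECs and 0.0502% and 0.00387% for EGCG-treated senECs against senECs. For EGCG-treated senECs against control ECs they were 0.131% and 0.232%.

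The fold changes that turned sign with no single library left out were GBP2 in any co-culture (-0.0227, block as labelled), IRF1 in any co-culture (-0.0107, at least 10 counts in every library), IRF1 for number 2 (-0.10, senEC and EGCG-treated senEC libraries only), GBP5 for EGCG-treated senECs against senECs (-0.0149 under the block as labelled, -0.0138 under the joined block, -0.0049 with DESeq2 and block) and IRF1 in the same comparison (-0.0091, every gene with a count). With libraries left out, log2 fold changes in any co-culture ran from -0.81 to 0.33 for GBP1, -0.19 to 0.57 for GBP2, -0.14 to 0.49 for GBP5, -0.0595 to 0.04 for IRF1 and -0.10 to 0.24 for CXCL10. For senECs against control ECs they ran from -0.44 to 1.05 for GBP1, -0.40 to 1.05 for GBP2, -0.35 to 0.16 for GBP3, -0.0771 to 0.31 for GBP4, -0.18 to 0.64 for GBP5, -0.0088 to 0.63 for CXCL10 and -0.0033 to 0.18 for WARS. For EGCG-treated senECs against senECs they ran from -1.06 to 0.80 for GBP1, -0.94 to 0.59 for GBP2, -0.46 to 0.14 for GBP3, -0.022 to 0.32 for GBP4, -0.47 to 0.42 for GBP5, -0.0652 to 0.074 for IRF1, -0.19 to 0.0445 for WARS and -0.13 to 0.0427 for LAP3. GBP1 and IDO1, at 13 to 96 and 1 to 31 counts, are limited by depth.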
